A study of Mus musculus with 4 samples.

Results

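Tbx2, Tbx3, Tbx4 and Tbx5 are 4 T-box transcription factor genes of the mouse, and the accessible chromatin around them was described here at 2 stages of limb development. Every region of the deposited peak lists that overlapped the interval of 150 kb on either side of a gene's start site was taken, and each region was given to the gene whose start site lay nearest to its summit. This gave 127 of 99356 regions at E10.5 and 19 of 37413 at E11.5, counted on chromosomes 1 to 19, X and Y. The data are ATAC-seq, in which the Tn5 transposase places sequencing adaptors where DNA is accessible, from limb cells of wild-type embryos. Fore- and hindlimbs went into the same samples, so the limb types cannot be told apart. The 4 samples are 2 replicates of each stage, E10.5 and E11.5 (E, embryonic day, taken from the titles). The treatment protocol writes E10 for the earlier stage, and the strain is not given in the sources used here. The deposited data are 1 list of regions per stage that joins both replicates, so no value has a spread between replicates and no difference between stages was tested. In bulk tissue, fewer cells with an accessible region and less accessibility per cell cannot be told apart.

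T-box factors bind DNA through a shared domain, the T-box. Tbx5 is active in the forelimb field and Tbx4 in the hindlimb field, and both feed the Fgf10 signal that drives outgrowth of the bud. Tbx2 and Tbx3 act mainly as repressors and are expressed along the margins of the limb bud, where they take part in anterior-posterior patterning. The genes stand in neighbouring pairs, Tbx2 with Tbx4 and Tbx3 with Tbx5. Tbx2, Tbx3 and Tbx5 act in the developing heart as well as in the limb.

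All 4 genes lie on the plus strand in mm10. Tbx2 (gene ID 21385) occupies chr11:85832615-85841948 and Tbx4 (gene ID 21387) chr11:85886367-85916097, with start sites 53.8 kb apart. Tbx3 (gene ID 21386) occupies chr5:119670534-119684724 and Tbx5 (gene ID 21388) chr5:119796514-119885220, with start sites 126.0 kb apart. The nearest protein-coding neighbours of the chromosome 11 pair are Bcas3, which ends 6.6 kb before Tbx2, and Brip1, 142.0 kb after Tbx4. The chromosome 5 pair stands alone, with Med13l 905.1 kb before Tbx3 and Rbm19 231.3 kb after Tbx5.

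The RefSeq promoter table (GRCm38.p6, the coordinates of mm10) held 11 start sites of 10 genes inside these intervals. Of the 4 genes, Tbx4 was matched, with 1 entry, and Tbx2, Tbx3 and Tbx5 were not. An E10.5 region covered 7 of the 11 start sites, and no E11.5 region covered any. No share over all start sites of the table is set beside these counts, so they are description only. The 4 sequences below are start sites that an E10.5 region covered and no E11.5 region covered: an internal start of Tbx4, and 3 minus-strand noncoding RNAs that overlap or flank Tbx3 and Tbx5. Each runs 5′ to 3′ on the strand of its gene, from 250 bases before the start to 50 from it, and capitals mark the 50 bases from the start site on.

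Tbx4, chr11:85896515-85896814, plus strand: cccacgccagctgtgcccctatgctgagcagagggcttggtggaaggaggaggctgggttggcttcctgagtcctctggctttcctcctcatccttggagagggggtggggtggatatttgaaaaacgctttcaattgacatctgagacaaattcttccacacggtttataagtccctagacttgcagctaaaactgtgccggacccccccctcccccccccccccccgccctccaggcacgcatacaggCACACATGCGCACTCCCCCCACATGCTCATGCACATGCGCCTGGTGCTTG

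Tbx3os1, chr5:119671459-119671758, minus strand: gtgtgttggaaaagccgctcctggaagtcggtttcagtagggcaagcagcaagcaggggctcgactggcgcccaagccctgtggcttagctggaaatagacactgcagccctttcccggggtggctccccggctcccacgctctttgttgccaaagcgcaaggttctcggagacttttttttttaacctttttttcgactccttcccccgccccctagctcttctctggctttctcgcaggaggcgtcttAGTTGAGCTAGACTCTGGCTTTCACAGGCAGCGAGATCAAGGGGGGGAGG

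Tbx3os2, chr5:119691169-119691468, minus strand: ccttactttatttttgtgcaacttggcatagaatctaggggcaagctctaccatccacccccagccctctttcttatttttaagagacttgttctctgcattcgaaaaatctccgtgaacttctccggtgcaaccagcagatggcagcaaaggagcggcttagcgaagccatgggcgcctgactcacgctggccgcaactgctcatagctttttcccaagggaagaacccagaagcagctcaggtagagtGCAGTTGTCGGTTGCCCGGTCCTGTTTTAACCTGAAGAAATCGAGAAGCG

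Gm5563, chr5:119831937-119832236, minus strand: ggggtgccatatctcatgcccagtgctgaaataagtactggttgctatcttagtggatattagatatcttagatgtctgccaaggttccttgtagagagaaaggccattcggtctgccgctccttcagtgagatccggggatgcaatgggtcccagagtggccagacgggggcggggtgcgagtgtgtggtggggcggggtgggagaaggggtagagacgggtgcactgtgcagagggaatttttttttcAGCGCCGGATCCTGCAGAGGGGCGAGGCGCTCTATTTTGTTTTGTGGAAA

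The E10.5 summit lay 83 bp from the Tbx4 internal start, 38 bp from the Tbx3os2 start and 67 bp from this Gm5563 start. The Tbx3os1 start lay 844 bp from the summit of its region, which is the region over the Tbx3 promoter. The GC content of these 300-base windows was 59.0% for Tbx4, 57.3% for Tbx3os1, 50.7% for Tbx3os2 and 54.7% for Gm5563, against a median of 52.7% over 32851 promoters of the table. GGTGTGA, a core sequence bound by T-box factors, searched on both strands, was in none of the 11 windows and in 3.98% of all promoters of the table. That says only that these letters are not in these windows.

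Each region carries the authors' signal value, which has no stated unit and grows with the width of the region (Spearman's rho 0.87 across E10.5 regions and 0.88 across E11.5 regions). It is used to rank regions within a list, where rank 1 is the highest of 99356 regions at E10.5 or of 37413 at E11.5. A region is called shared when it overlaps a region of the other list by at least 1 bp. Over the whole lists 32.3% of E10.5 regions and 91.8% of E11.5 regions were shared.

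Around the 4 genes, 15 of 127 E10.5 regions were shared, which is 11.8% (95% Wilson interval 7.29 to 18.6%). All 19 E11.5 regions were shared, and the 0 unshared among 19 allow an unshared share of up to 15.8%, taken as 3 counts of 19. Near Tbx2 or Tbx4, 13 of 63 E10.5 regions were shared with 17 E11.5 regions, or 20.6% (12.5 to 32.2%). Near Tbx3 or Tbx5, 2 of 64 E10.5 regions were shared with 2 E11.5 regions, or 3.12% (0.861 to 10.7%). This contrast between the pairs shrank when only regions of −log10 p of at least 5 were kept in both lists, with 2 of 38 shared near Tbx2 or Tbx4 and 1 of 38 near Tbx3 or Tbx5. It shrank likewise under a reciprocal overlap of 50% of both regions, with 2 of 63 and 0 of 64 shared. The pairs held nearly the same number of E10.5 regions, and they covered 80.4 kb of the chromosome 11 interval and 62.1 kb of the chromosome 5 interval. The intervals treat neighbouring regions as independent and cover counting error only, and the difference between the pairs was not tested over samples.

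**Figure D1:**
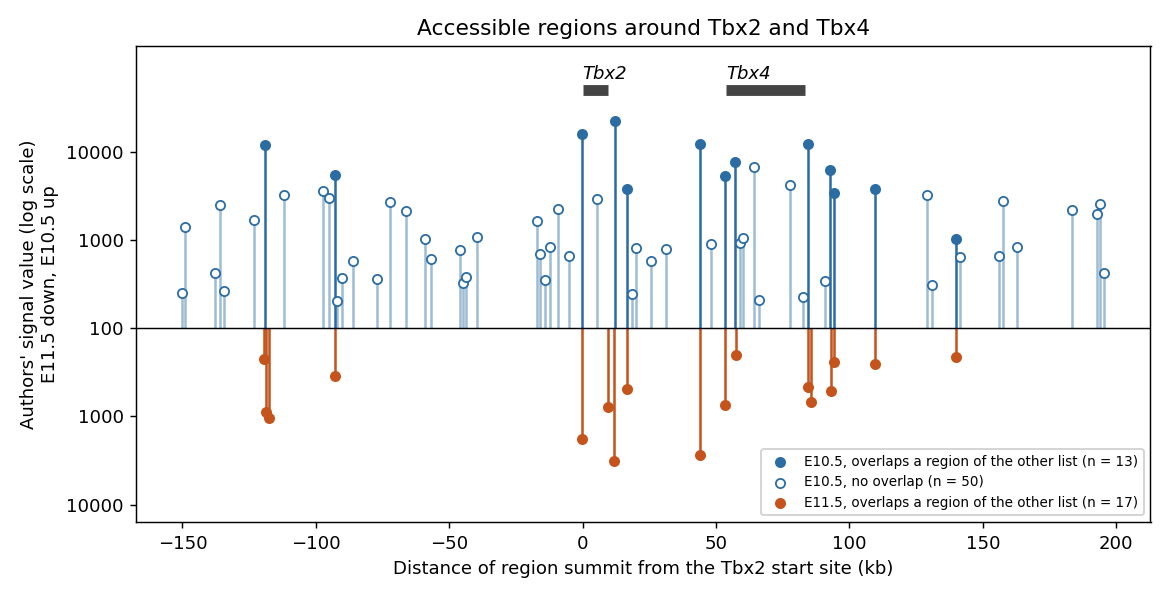
Regions around Tbx2 and Tbx4 by the distance of their summit from the Tbx2 start site (x axis, kb) and the authors' signal value (y axis, log scale; E10.5 above the line, E11.5 below). Filled points overlap a region of the other list; 13 of 63 E10.5 regions and all 17 E11.5 regions do, and they stand at or after the genes, between them, and at 118.9 and 92.9 kb before Tbx2.

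**Figure D2:**
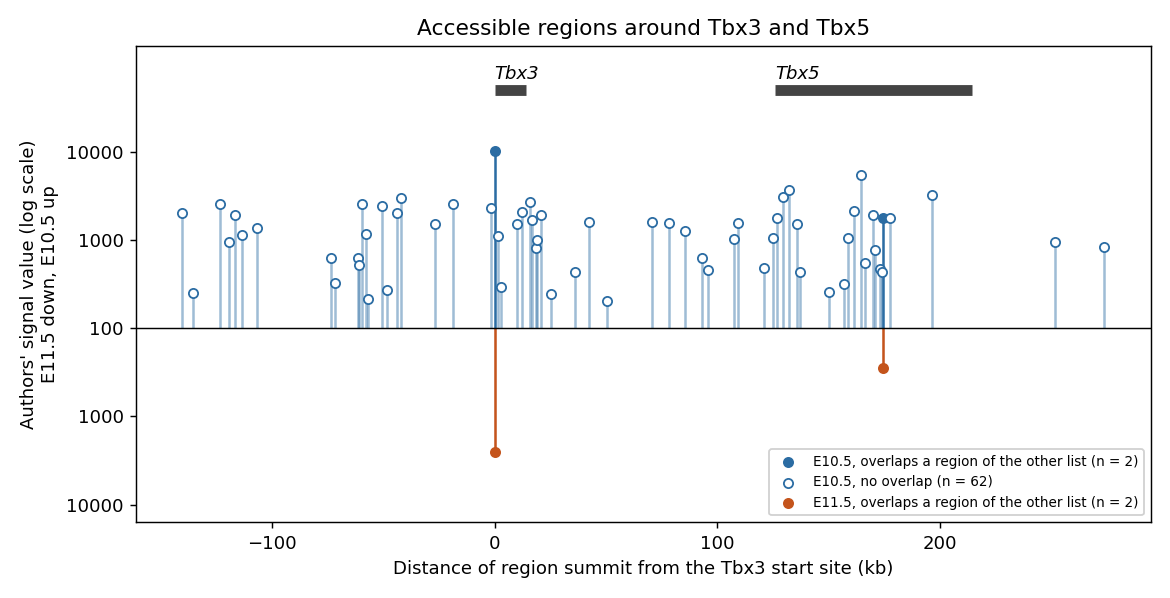
Regions around Tbx3 and Tbx5 by the distance of their summit from the Tbx3 start site (x axis, kb) and the authors' signal value (y axis, log scale; E10.5 above the line, E11.5 below). Of 64 E10.5 regions 2 are filled as shared, the Tbx3 promoter and a region inside Tbx5, and the E11.5 list holds a single region at each.

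Tbx5, the forelimb factor, had 29 E10.5 regions and 1 E11.5 region. At E10.5, 18 of the 29 touched the gene itself, and signal ran from 259 to 5453 with a median of 1060. The highest was chr5:119833100-119836288, inside the gene 38.8 kb after its start site, with a signal of 5453 and rank 8446. It had no E11.5 overlap, nor did the next by signal, chr5:119802034-119804262 (3689, 6.3 kb after the start) and chr5:119866208-119867580 (3227, 70.5 kb after the start). The promoter, taken as 1 kb on either side of the start site, here the outer gene end, had 2 regions at E10.5. Their signals were 1769 and 1060 and their ranks 29320 and 42666. The −log10 p of these regions was 4.99 and 4.94, just below the limit of 5 used further on. No E11.5 region lay there. Internal starts of Tbx5 were not examined, so these promoter values cover the outer end only.

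The single E11.5 region of Tbx5, chr5:119845081-119845299, was 219 bp wide and lay inside the gene 48.7 kb after its start site. Its signal was 281 and its rank 31332, which is 83.7% from the top of that list. At E10.5 the same place had a region of 669 bp with a signal of 1762, a −log10 p of 8.8 and rank 29415. The summits were 36 bp apart. The region with the greatest −log10 p near Tbx5, the one at 70.5 kb with 9.08, had both a higher signal and a higher −log10 p than the shared region and was in the E10.5 list alone. Of the 29 regions, 6 overlapped Gm5563, the noncoding RNA gene inside Tbx5 whose start is shown above, and none of those 6 was shared.

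Tbx4, the hindlimb factor, had 27 E10.5 regions and 9 E11.5 regions, and 8 of the 27 were shared. Its E10.5 regions had the highest median signal of the 4 genes, 1982, with a range of 209 to 12330. The highest was chr11:85875087-85877435 between Tbx2 and Tbx4, 9.7 kb before the Tbx4 start, with a signal of 12330, a −log10 p of 13.98 and rank 949. It was shared with chr11:85875938-85876819, which had the highest E11.5 signal near Tbx4 (2751, rank 7791). Next came chr11:85916072-85919222 over the end of the gene (12239, rank 976), which met 2 E11.5 regions with signals of 467 and 678, and chr11:85888218-85890903 inside the gene (7693, rank 4067). The E11.5 region at that last place had a signal of 202, rank 37276 and so was near the bottom of its list.

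The Tbx4 promoter region spanned the start site at both stages. At E10.5 it was chr11:85885417-85886833 with a signal of 5248 and rank 8976, and at E11.5 chr11:85885805-85886811 with a signal of 745 and rank 18386. The summits lay 46 bp apart. The region over the internal start, chr11:85893983-85897344, had a higher E10.5 signal (6772, rank 5499) than the outer promoter. It was also wider (3362 against 1417 bp). The outer promoter had the higher −log10 p (9.86 against 8.31) and the higher signal per bp (3.7 against 2.01). By signal, the region over the internal start was the highest Tbx4 region with no E11.5 overlap. After the gene, 4 regions between 39.1 and 86.3 kb from the start were shared, at summits 39.1, 40.3, 55.7 and 86.3 kb away. Their E11.5 signals were 512, 243, 255 and 212. The 8 E10.5 regions from 87.5 to 141.8 kb after the start were all in the E10.5 list alone.

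Tbx2, the repressor next to Tbx4, had 36 E10.5 regions and 8 E11.5 regions, and 5 of the 36 were shared. Its E10.5 signals ran from 201 to 22044 with a median of 923. The highest region of the whole set, chr11:85839367-85846816, covered the end of Tbx2 and 7.45 kb in all, with a signal of 22044 and rank 95. It met 2 E11.5 regions, chr11:85841938-85842317 (signal 774) and chr11:85843081-85844930 (signal 3198, rank 6530), the latter the highest E11.5 signal near any of the 4 genes. The promoter region was 5.55 kb wide at E10.5 (chr11:85828505-85834057, signal 15899, rank 357) and 1.56 kb at E11.5 (chr11:85832054-85833616, signal 1783, rank 11244), with summits 35 bp apart. Between these regions, inside the gene, chr11:85835742-85838776 had a signal of 2927 and no overlap.

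Before Tbx2, 28 of the 36 E10.5 regions lay in Bcas3, the neighbouring gene, and 2 of the 28 were shared. One of these, chr11:85712532-85716244, lay 118.9 kb before the Tbx2 start with a signal of 12089 and rank 1024, and met 3 E11.5 regions with signals of 224, 895 and 1032. The other, chr11:85739174-85740325 at 92.9 kb (5430, rank 8494), met an E11.5 region with a signal of 352. The highest E10.5-only region near Tbx2, chr11:85733465-85735792, lay 97.3 kb before the start with a signal of 3609 and rank 15105. Which gene these regions act on was not tested.

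Tbx3, the repressor next to Tbx5, had 35 E10.5 regions and 1 E11.5 region, both lists meeting at its promoter. The E10.5 promoter region, chr5:119669623-119671839, had a signal of 10275, a −log10 p of 15.51 and rank 1739. By −log10 p it ranked 542 in its list, above every other region near the 4 genes. The E11.5 region, chr5:119670273-119671111, had a signal of 2503, a −log10 p of 7.45 and rank 8541, and the summits lay 10 bp apart. By −log10 p the Tbx3 promoter was thus the highest region of the set at both stages.

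No other region near Tbx3 was shared, and the 34 that were not ran up to a signal of 3011. The next 2 by signal were chr5:119627549-119630044 (3011, rank 18266), 41.9 kb before the start in Tbx3os1 and Gm16063, and chr5:119685500-119686906 (2710, rank 20215), 15.8 kb after it in Tbx3os2. Tbx3os1 and Tbx3os2 are noncoding RNA genes on the opposite strand, whose starts are shown above. Of the 35 E10.5 regions, 11 touched Tbx3os1 and 5 touched Tbx3os2. Only the promoter region among these was shared.

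**Figure D3:**
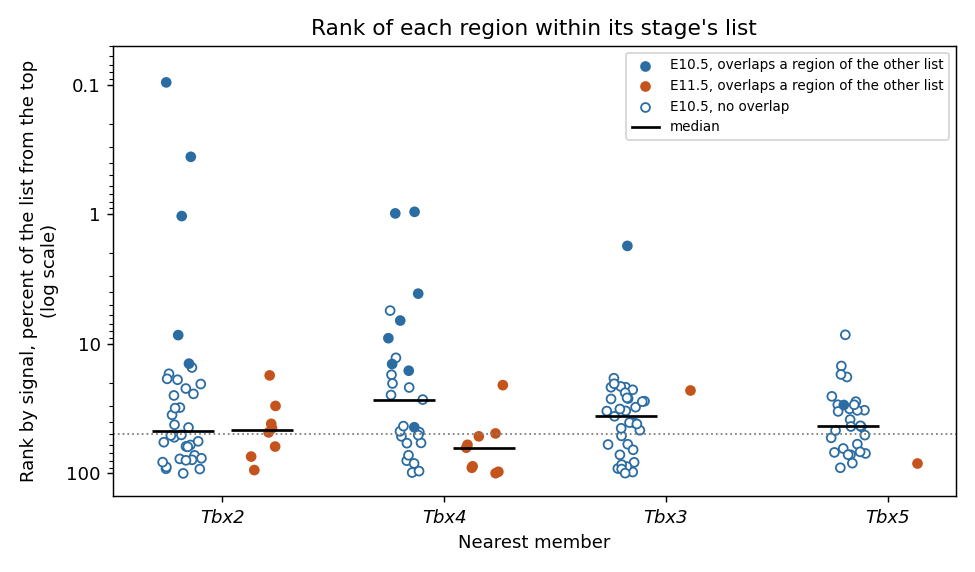
Rank of each region within its own stage's list, as the percent of the list from the top (y axis, log scale, best at the top), by nearest gene; black lines are medians and the dotted line marks the middle of the list. E10.5 regions of Tbx2 reach 0.0956% from the top, whereas the best E11.5 region of any of the 4 genes stands at 17.5%.

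Of the 19 E11.5 regions near the 4 genes, 8 stood above the middle of their list, 5 of Tbx2, 2 of Tbx4 and the 1 of Tbx3. The best stood at rank 6530 of 37413 (17.5% from the top), and the median was 60.1%, against 50% for a list by definition. For the E10.5 regions the median was 40.7% and the best rank was 95. Percentiles within lists of unequal length do not show a change of a region. The 5 highest E10.5 regions, 3 of Tbx2 and 2 of Tbx4, all lay within 1.03% of the top of their list, and the E11.5 regions they met lay between 17.5 and 94.2% from the top of theirs.

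Since overlap rises with signal across the whole list, the members were set beside regions of like signal. In the 3 highest deciles of E10.5 signal, 77.3% of all regions were shared, and 14 of 49 regions near the 4 genes were. By gene these were 5 of 13 for Tbx2, 7 of 14 for Tbx4, 1 of 13 for Tbx3 and 1 of 9 for Tbx5. In the highest decile 96.7% of all regions were shared, and 9 of 10 near Tbx2 or Tbx4 and 1 of 2 near Tbx3 or Tbx5. In the second decile 81.3% of all regions were shared, against 3 of 9 and 0 of 4. In the third decile 54.0% were, against 0 of 8 and 1 of 16. In the lower 7 deciles, 13% of all regions were shared and 1 of 78 near the 4 genes. The members of a pair share 1 stretch of chromosome, and no test over samples could be made.

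**Figure D4:**
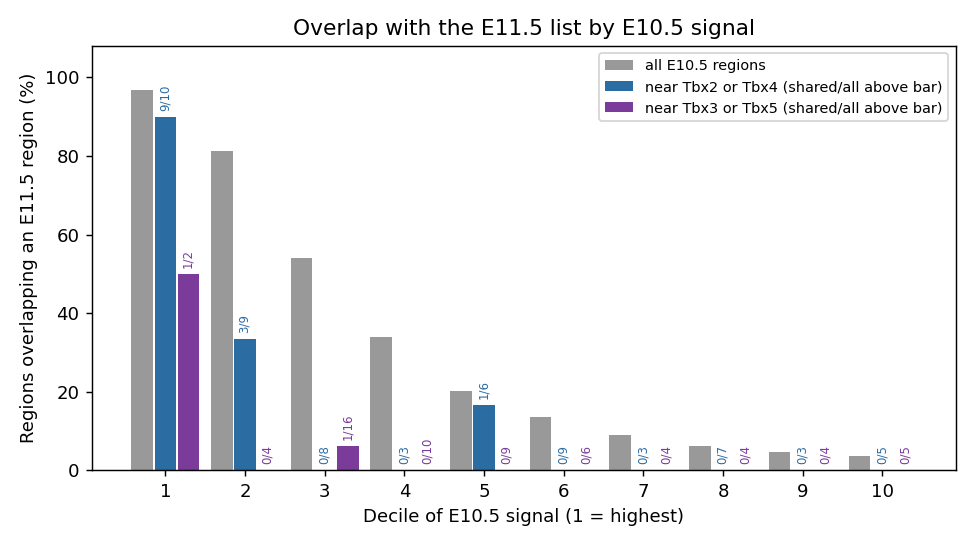
Percent of E10.5 regions that overlap an E11.5 region (y axis) in each decile of E10.5 signal (x axis, 1 is the highest), for all regions (grey), those near Tbx2 or Tbx4 (blue) and those near Tbx3 or Tbx5 (purple), with shared over all regions printed above each coloured bar. In deciles 2 to 4 the grey bars stand at 81.3, 54.0 and 33.8%, above both pairs.

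Keeping only the 37413 E10.5 regions of highest signal, as many as the later list holds, left 68.9% of them shared, and 23% of the 61 regions left near the 4 genes. By gene the shared counts were 5 of 16 for Tbx2, 7 of 14 for Tbx4, 1 of 18 for Tbx3 and 1 of 13 for Tbx5. With only regions of −log10 p of at least 5 in both lists, 32.4% of all E10.5 regions were shared and 3.95% of the 76 near the 4 genes. By gene 1 of 20 was shared for Tbx2, 1 of 18 for Tbx4, 1 of 22 for Tbx3 and 0 of 16 for Tbx5. Of the E11.5 regions 4 were left, 2 for Tbx2, 1 for Tbx4 and 1 for Tbx3, and the Tbx5 region was lost.

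All 19 E11.5 regions lay wholly inside the E10.5 region they overlapped, and each E10.5 region was wider. The ratio of E11.5 to E10.5 width ran from 0.05 to 0.73 over the 19 pairs of regions, with a median of 0.26. Over all 34604 overlapping pairs of regions in the lists the median was 0.61, and 27240 E11.5 regions lay wholly inside. The summits near the 4 genes were a median of 88 bp apart, and 10 of 19 lay within 100 bp. For all pairs of regions the median was 27 bp, and 26421 of 34604 lay within 100 bp. An E10.5 region that met more than 1 E11.5 region entered once for each. The greatest distance was 2621 bp at the end of Tbx2, where 1 E10.5 region met 2 E11.5 regions. At E10.5, 15 of 127 regions were wider than 2 kb, against 6.47% of the list. None of the 19 E11.5 regions was, against 4.09% of the list.

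**Figure D5:**
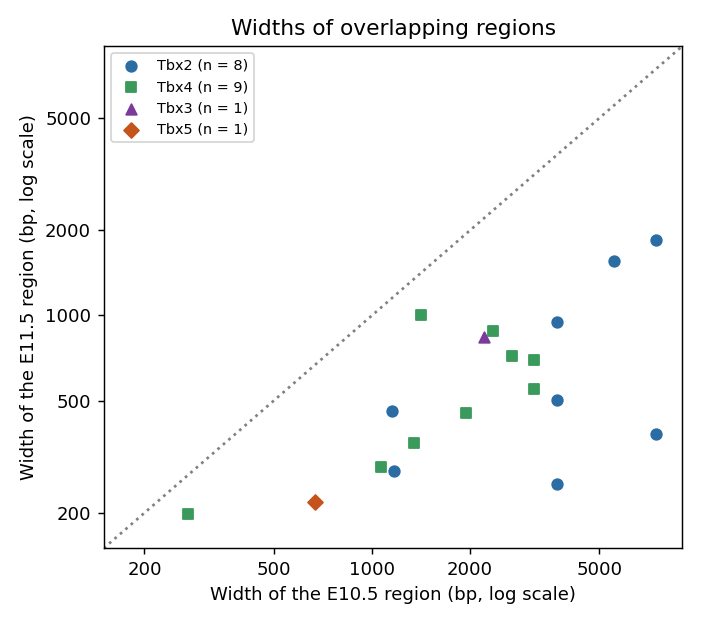
Width of the E11.5 region (y axis, bp, log scale) against that of the E10.5 region it overlaps (x axis, bp, log scale) for the 19 overlapping pairs, coloured by nearest gene; the dotted line marks equal widths. All points lie below the line, at 0.05 to 0.73 of the E10.5 width.

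By position, 5 of the 127 E10.5 regions were promoter regions, 31 others touched the nearest T-box gene, 45 lay in another gene only and 46 lay between genes. These counts differed between the genes, and so did the layout: Tbx2 is 9334 bp long and Tbx5 88707 bp, and Bcas3 ends 6.6 kb before Tbx2. No share of sequence in each class is set beside the counts, so they describe position only. Near Tbx2, 29 of 36 lay in another gene, near Tbx5 17 of 29 were inside the gene beyond the promoter, and near Tbx4 17 of 27 lay between genes. Near Tbx3, 15 lay in another gene and 15 between genes. Of the shared E10.5 regions, 3 were promoter regions, 4 were elsewhere in the T-box gene, 2 in another gene and 6 between genes.

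The windows were dense at E10.5. Counted without assignment, 150 kb on either side of the start site held 56 E10.5 regions at Tbx2, 54 at Tbx4, 49 at Tbx3 and 45 at Tbx5, against a median of 16 over 21536 protein-coding genes. The same windows held 17, 14, 1 and 2 E11.5 regions, against a median of 7. Fewer E10.5 regions were held by 99.3% of genes than by Tbx2, 99.1% than by Tbx4, 98.4% than by Tbx3 and 97.4% than by Tbx5. For E11.5 regions, 89% of genes had fewer than Tbx2 and 82.5% fewer than Tbx4, but 9.22% had fewer than Tbx3 and 14.2% fewer than Tbx5. Of 568 genes with at least 45 E10.5 regions in the window, 3 had at most 2 E11.5 regions, and these were Tbx3, Tbx5 and Afap1l2 on chromosome 19. Both limits were set from the values of Tbx3 and Tbx5 themselves, and windows of neighbouring genes share regions, so this is a description and no test.

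Beyond the windows the E11.5 list was not empty around Tbx3 and Tbx5. Between Med13l and Rbm19, over 1351 kb, there were 144 regions at the earlier stage and 12 at the later, of which 80 and 10 lay outside the 150 kb windows. Of those 80, 9 were shared. From the start of Bcas3 to Brip1, over 705 kb, they held 94 and 19 regions, with 31 and 2 outside the windows. Of those 31, 1 was shared, so outside the windows the chromosome 5 interval held the larger share, on few shared regions. These outer parts are unlike, as the chromosome 11 interval takes in Bcas3 and the chromosome 5 interval starts after Med13l. Both shares lay below the 32.3% of all E10.5 regions, and their difference was not tested.

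Other genes of the family and of the limb bud were set beside the 4. Over all protein-coding genes, 66.3% had a region within 1 kb of the start site in the E10.5 list and 59.9% in the E11.5 list. All 4 genes here had one in the earlier list, and all but Tbx5 in the later. With −log10 p of at least 5, Tbx5 had none at its outer gene end in either list, as its E10.5 regions there stood at 4.99 and 4.94. Its highest E10.5 region by signal, inside the gene, stood at 6.72, and internal starts of Tbx5 were not examined. The E11.5 promoter regions of Tbx2 (4.87) and Tbx4 (4.31) also fell below that limit, and only that of Tbx3 (7.45) stayed. Of 13 other T-box genes, 10 had one in the earlier list and 8 in the later, or 8 and 5 with −log10 p of at least 5. No share of all protein-coding genes at that limit is set beside these counts or those of the gene lists below. The highest of these at E10.5 were Tbx18 (signal 9050, and 3780 at E11.5), Tbx6 (8297 and 2278) and Tbx15 (6335 and 620). T, the Brachyury gene of the early mesoderm, and Tbx21, a factor of T helper cells, had a region at E10.5 alone, with signals of 569 and 1442. Tbx10, Tbx19 and Tbx22 had none in either list. The median window of these 13 genes held 22 E10.5 and 9 E11.5 regions.

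Of 24 genes known to act before or after these factors in the limb bud, all 24 had a promoter region in the earlier list and 21 in the later. With −log10 p of at least 5 the counts were 22 and 18. Fgf10, the outgrowth signal that Tbx4 and Tbx5 feed, had an E10.5 promoter signal of 10791 and an E11.5 one of 8720, which stood 1.5 and 1.11% from the top of the respective lists. The highest at E10.5 were Wnt5a (28124, and 1978 at E11.5), Sall1 (21709 and 4926) and Prrx1 (17871 and 5640), with Wnt5a a secreted signal of the distal bud and Prrx1 a marker of limb mesenchyme. The 3 genes without an E11.5 promoter region were Fgf8, a signal of the apical ridge, Wnt3, a ligand active in limb ectoderm, and Pitx1, the hindlimb factor that acts before Tbx4. Only the outer end of each listed gene was taken as its start, and other starts were not examined. The median window of the 24 genes held 29 E10.5 and 9 E11.5 regions.

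Of 10 heart genes, 6 had a promoter region in the earlier list and 2 in the later. With −log10 p of at least 5 the count was 2 in each list, with no difference between the stages. Those in both lists were Gata6 (6212 and 1399) and Hcn4 (8655 and 1898). Myh6, Nppb, Tnnt2 and Actc1, genes of heart muscle, had one at E10.5 alone with signals of 290 to 771. Nkx2-5, Gata4, Myh7 and Nppa had none in either list at the outer gene end, and their other starts were not examined. As a weak check of the labelled tissue, 8 of 8 limb mesenchyme markers had a promoter region at both stages. Of 8 limb ectoderm markers, the earlier list had one for 7 and the later for 3. For endothelium the counts were 3 and 1 of 5, for blood 2 and 2 of 5, and for heart muscle 3 and 0 of 5. Promoter regions were common among protein-coding genes at large, with shares of 66.3% in the earlier list and 59.9% in the later. The earlier counts for endothelium and heart muscle lay near that share, and the later ones below it. With so few genes per set, these counts cannot tell which tissues were present. The part of these cell types in the results at the 4 genes was not tested.

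Among the genes of the 3 lists, the nearest in numbers of regions within 150 kb, by distance in log2(number + 1) over the 2 lists, were Hoxc10 and Tnnt2 for Tbx2 (distances 0.31 and 0.59) and Hoxc10 and Tbx1 for Tbx4 (0.22 and 0.44). Hoxc10 had 63 E10.5 and 14 E11.5 regions in its window. For Tbx3 they were Etv5 and Wnt3 (1.55 and 1.67), and for Tbx5 Wnt3 and Etv5 (1.07 and 1.14). No gene of the lists came as near to Tbx3 or Tbx5 as Hoxc10 came to Tbx2 and Tbx4. Wnt3 had 34 and 5 regions and Etv5 had 21 and 3.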

How the data were processed

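ATAC-seq was done on 4 wild-type mouse limb samples, 2 per stage, grouped by title. The deposited narrowPeak lists, 1 per stage, are on mm10, per the file headers, and each is named for both replicates. The submitters' processing notes name cutadapt, Bowtie2, SAMtools, deepTools and Genrich, with no versions. Filters, any Tn5 shift and the way replicates were joined are not given in the sources used here. Per region the authors deposited a signal value, a −log10 p and a score, which is the signal per bp times 1000, capped, in 100% of peaks, and was not used. The smallest deposited signal is 200.0 in both lists, so weaker regions are not listed.

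Regions on chromosomes 1 to 19, X and Y were analysed with Python 3.11.15, pandas 2.3.3 and NumPy 2.4.6, with overlap of at least 1 bp, checked against a brute-force search on simulated data. Depth is unknown. Genes came from RefSeq (GRCm38.p6). Strand came from its promoter table or, by symbol, from GENCODE M1, for 21536 of 21887 protein-coding genes. Start sites are outer gene ends, and exons and introns were not used here. Regions named are those within 1 kb of a start site, the 3 of highest signal per gene and stage, and the highest E10.5-only region per gene. Others were named after their values were seen. The members and lists were chosen with earlier results of these data known. Alternatives tried were −log10 p of at least 5, matched list length, stricter overlap, summit position, windows of 100 and 50 kb, promoters within 500 bp and, chosen after seeing the data, the internal Tbx4 start.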

Additional observations from a re-analysis of the deposited data

How the results depend on the processing

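No paired analysis was possible because the 2 samples of a stage were deposited as 1 joint list, which also left no replicate to leave out. Depth is unknown and limits every count. With −log10 p of at least 5, the windows held 76 E10.5 and 4 E11.5 regions, 3.95% of the E10.5 regions were shared, 5 T-box family genes had an E11.5 promoter region and 2 heart genes an E10.5 one. Matching the E10.5 list in number left 61 regions, 23% shared, by signal, and 50 regions, 30% shared, by −log10 p. Reciprocal overlap of 50% left 1.57% of the earlier and 10.53% of the later regions shared, and summits within 100 bp gave 52.6% of E11.5 regions. No share of regions over the whole lists is set beside the values for the list matched by −log10 p, reciprocal overlap or summits. Those values therefore do not place the windows against the lists. For summits, only overlapping pairs were counted over the whole lists, as given above. Windows of 50 kb held 76 E10.5 regions. By construction these settings leave fewer regions or ask for a stricter overlap. The contrast between the pairs shrank with −log10 p of at least 5 (5.26 against 2.63% shared) and with reciprocal overlap (3.17 against 0%). With summits within 100 bp it shrank less, to 12.7 against 3.12%, and it was 40 against 6.45% in the list matched by signal. The other 31 of 44 values for the windows and lists stayed within their criterion, the 95% interval for a share and 1.5 times for a count. Of the counts by gene, 29 moved beyond their criterion and 63 did not. The internal Tbx4 start moved 1 E10.5 region from Tbx4 to Tbx2, giving 37 and 26.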
